A study of Mus musculus with 24 samples.

Results

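Described here are 7 Pax genes other than Pax3: Pax1, Pax2, Pax5, Pax6, Pax7, Pax8 and Pax9. Their captured promoter fragments were followed in mouse cranial neural crest cells. A fragment was taken as a member where it held an annotated end of one of these genes or lay within 1 kb of one. This gave 7 of the 22203 captured fragments in the files: 2 for Pax1 and 1 each for Pax5, Pax6, Pax7, Pax8 and Pax9. No captured fragment met the rule for Pax2. A further 8 captured fragments inside the 7 genes lay farther from an end, and the few of them that are described were kept apart from the members. Among these, a second Pax6 fragment (chr2:105669958-105671488) lay 1062 bp from the Pax6 start. The fragment that holds 2 of the 3 listed Pax2 starts (chr19:44748489-44759479) lay 1888 bp from the annotated gene start and is called the Pax2 start fragment. Without the 1 kb margin the Pax9 fragment and 1 of the Pax1 fragments would drop out, which leaves 5 members.

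The assay was promoter capture Hi-C, in which crosslinked chromatin is cut with the restriction enzyme HindIII, ligated, and enriched for fragments that carry promoters. The study holds 24 libraries in 12 groups of 2. Wild-type (WT) groups are crest progenitors at E8.5 and crest from 4 facial tissues at E11.5, labelled FNP, Mx, Md and PA2 (frontonasal, maxillary, mandibular and second pharyngeal arch). Ezh2cKO groups are the same 4 tissues at E11.5 with a conditional knockout of Ezh2, the catalytic subunit of the Polycomb repressive complex that methylates histone H3 at lysine 27. The Hoxa2PTE-36kb-del groups (Md and PA2, E11.5) and the Hoxa2PTE-42kb-del group (PA2, E11.5) carry deletions named for a Hoxa2 element. Crest cells were sorted by flow cytometry from Wnt1::Cre;ROSARFP embryos, in which a Cre driven by Wnt1 switches on a red fluorescent protein, and from Ezh2cKO embryos. The sources used here do not give the Cre driver of Ezh2cKO, the sorting of the deletion embryos, the position of the deleted element, or whether embryos were pooled. The replicates are called biological in the titles of all groups except Hoxa2PTE-42kb-del, where only the sample descriptions do so. The genotype entry of the second PA2 Hoxa2PTE-36kb-del library holds the title of a different sample, so this library was grouped by its title. Each library has a batch name of its own, so batch and library cannot be told apart. Contact calls do not measure RNA, so neither the loss of Ezh2 nor the labelled cell type could be checked against expression.

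Pax proteins are transcription factors that bind DNA through a paired domain. Pax1 and Pax9 lack a homeodomain and act in the pharyngeal endoderm, the sclerotome and the facial mesenchyme, where Pax9 is required for palate and tooth development. Pax2, Pax5 and Pax8 keep part of a homeodomain and act in the midbrain and hindbrain, the ear and kidney, the B cell lineage and the thyroid. Pax6 acts in the eye, the forebrain and the nasal placode, and Pax7, the close relative of Pax3, acts in crest and muscle progenitors. Promoters of such regulators are commonly bound by Polycomb complexes in cells that do not express them, and promoters bound in this way can contact each other over long distances. CG dinucleotides are dense in most promoters that Polycomb complexes bind.

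The promoter sequences of 4 of the genes are shown to place the captured promoters. Pax9, Pax1 and Pax6 had many called contacts, and Pax8 is 1 of the genes that had few. Each runs from 250 bases before to 50 bases after a start listed by RefSeq (GRCm38.p6), is written 5′ to 3′ on the gene's own strand, and has CG dinucleotides in capitals. Over 32851 promoters of the same length the median was 7 CG dinucleotides. The Pax6 sequence (chr2:105668646-105668945, plus strand) holds 18, a number reached by 29.7% of those promoters. Pax1 (chr2:147364744-147365043, plus strand) holds 13, reached by 37.9%, and Pax9 (chr12:56695221-56695520, plus strand) holds 11, reached by 41.4%. Pax8 (chr2:24475550-24475849, minus strand) holds 7, reached by 52.1%. Of those not shown, the windows of Pax5 and Pax7 hold 23 and 17, and that of the Pax2 start fragment with the most holds 30. The Pax9 window is crossed by 1 HindIII site, and its listed start lies 101 bp past the end of the captured fragment. Pax5 and Pax7, with more CG dinucleotides here than Pax9, had few called contacts.
Pax9: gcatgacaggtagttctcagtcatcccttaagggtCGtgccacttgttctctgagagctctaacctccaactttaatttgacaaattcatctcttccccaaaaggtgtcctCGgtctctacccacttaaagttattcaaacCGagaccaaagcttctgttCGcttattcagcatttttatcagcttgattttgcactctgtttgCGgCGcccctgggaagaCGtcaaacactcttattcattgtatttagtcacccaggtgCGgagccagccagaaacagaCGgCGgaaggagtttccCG
Pax1: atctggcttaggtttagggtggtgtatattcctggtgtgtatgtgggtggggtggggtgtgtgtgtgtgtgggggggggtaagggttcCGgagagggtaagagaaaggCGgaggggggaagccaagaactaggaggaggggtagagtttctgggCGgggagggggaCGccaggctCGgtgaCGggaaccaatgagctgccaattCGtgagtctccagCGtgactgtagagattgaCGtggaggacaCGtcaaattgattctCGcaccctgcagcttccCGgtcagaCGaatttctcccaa
Pax6: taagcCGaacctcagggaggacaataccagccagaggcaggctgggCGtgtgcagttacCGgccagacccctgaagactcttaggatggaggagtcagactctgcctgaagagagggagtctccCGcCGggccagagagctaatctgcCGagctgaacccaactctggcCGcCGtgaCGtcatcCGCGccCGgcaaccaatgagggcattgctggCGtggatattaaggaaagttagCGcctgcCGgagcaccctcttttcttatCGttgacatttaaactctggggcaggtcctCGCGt
Pax8: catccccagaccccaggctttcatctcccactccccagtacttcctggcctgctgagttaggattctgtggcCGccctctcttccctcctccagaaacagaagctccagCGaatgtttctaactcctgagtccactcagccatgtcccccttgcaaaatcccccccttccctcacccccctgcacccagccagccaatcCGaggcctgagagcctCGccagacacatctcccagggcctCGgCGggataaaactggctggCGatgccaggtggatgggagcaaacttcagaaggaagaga

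A call is an interaction between 2 HindIII fragments that the authors listed with a score of 5 or more. Calls were counted for a fragment at either end of the interaction, because each pair of captured fragments is listed in 1 order only. The libraries held 142284 to 190343 calls each. Changes are log2 differences between group means of the calls as a share of the library's cis calls, with 0.5 added to each count, from limma with Benjamini-Hochberg adjustment over all fragments tested. An adjusted p under 0.05 counts as past the threshold. A fragment entered the test with a mean of at least 5 cis calls over the 24 libraries, which 10344 fragments reached. Of the 7 members, 4 reached it (both Pax1 fragments, Pax6 and Pax9), and Pax5, Pax7 and Pax8 did not. The number of calls of a fragment also depends on its length and capture, so levels are compared between libraries and not between genes.

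**Figure D1:**
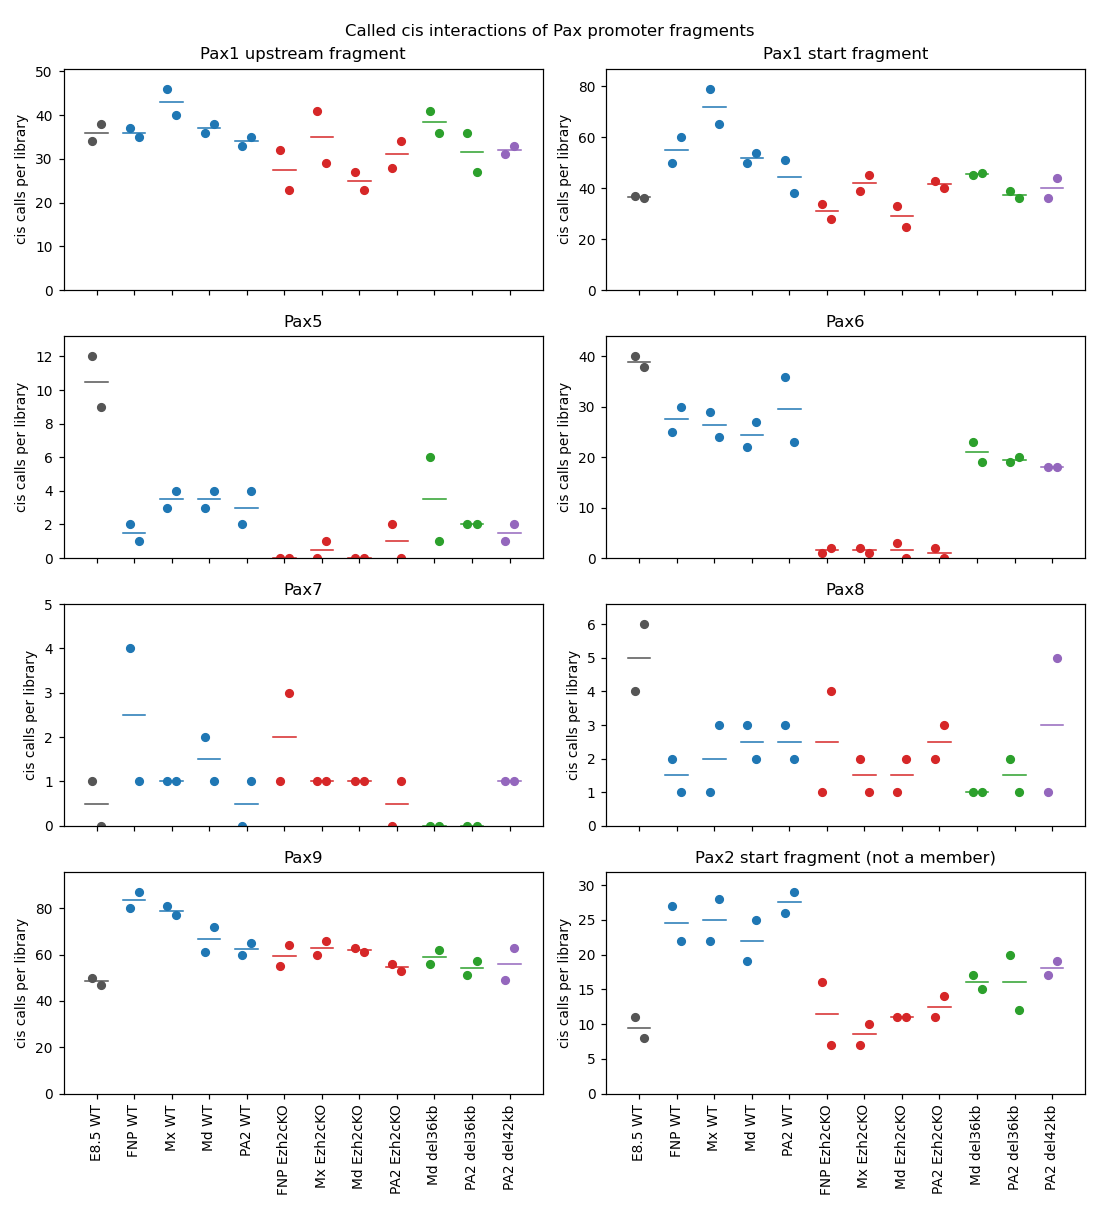
Called cis interactions per library (vertical axis, starting at 0) for the 7 member fragments and the Pax2 start fragment in the 12 groups (horizontal axis); each dot is 1 library and each bar the mean of 2. Pax6 sits at 22 to 36 in the 8 E11.5 WT libraries and at 0 to 3 in the 8 Ezh2cKO libraries, while Pax9 and the Pax1 fragments keep more than 20 calls in every library.

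In Ezh2cKO crest at E11.5 all 4 member fragments in the test had fewer cis calls than WT past the threshold. The fall was close to complete for Pax6 and partial for Pax1 and Pax9. Over all 10344 fragments, 10.8% passed the threshold and 5.39% passed with fewer calls, with a median change of 0.01. Because a fragment enters the test through its mean over all libraries, a promoter with many WT calls can enter and one with few in every group cannot, and the 4 are given as a description of these promoters.

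Pax6, the eye and forebrain regulator, lost nearly all of its called contacts without Ezh2. The lowest, median and highest of the 8 E11.5 WT libraries were 22, 26.0 and 36 cis calls, and those of the 8 Ezh2cKO libraries were 0, 1.5 and 3. The groups do not overlap. The change was -4.18 (SE 0.33, adjusted p = 1.06e-08). It passed within each tissue, with changes in FNP, Mx, Md and PA2 of -3.82, -3.89, -4.24 and -4.78 (SE 0.66 in each, adjusted p = 0.00346, 0.00223, 0.000874 and 0.000185). With 2 libraries a group these rest on single libraries in part: without the first FNP Ezh2cKO library the adjusted p in FNP was 0.0537 (-3.50), and without the second Mx Ezh2cKO library that in Mx was 0.0519 (-3.57). Fitted on the groups compared alone, the adjusted p in PA2 was 0.0939. The second Pax6 fragment had 17 to 31 calls in WT and 0 to 3 in Ezh2cKO, a change of -4.62 (SE 0.27, adjusted p = 8.57e-11). Both Pax6 fragments lie in the same promoter region and share partners, so they are not independent.

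The lost Pax6 contacts were led by one upstream region at Wt1, the gene of a zinc finger factor of the kidney and gonad. This region (chr2:105113239-105138919) lies 542 kb upstream of Pax6. It took 12 and 11 calls in the E8.5 libraries, 11 or 12 in each of the 8 E11.5 WT libraries, and 0 in each of the 8 Ezh2cKO libraries. All upstream calls of Pax6 were lost in this way: WT libraries had 17.6 ± 3.96 (SD, n = 8) and Ezh2cKO libraries had 0 in 8 of 8. On the downstream side 9.38 ± 1.69 calls fell to 1.38 ± 1.06 (SD, n = 8 each), and most of what remained pointed to a region at Dcdc5 415 kb away, with 1 to 3 calls in WT and 0 to 2 in Ezh2cKO. The captured Wt1 promoter itself, 540.8 kb from Pax6, was called with Pax6 in both E8.5, 7 of 8 WT and 0 of 8 Ezh2cKO libraries. Regions were delimited from these same calls, so their counts are a description with no test.

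Some Pax6 contacts were called at E8.5 and in few or none of the later WT libraries. The E8.5 libraries had 40 and 38 cis calls against 22 to 36 at E11.5 WT, and the groups do not overlap. The stage change, E11.5 WT over E8.5, was -0.65 (SE 0.52) and did not pass the threshold (adjusted p = 0.383), except where only the groups compared were fitted (adjusted p = 0.0214). The Hoxd cluster, on the same chromosome, was among the early partners. The region from Hoxd13 to Hoxd10, homeobox genes of the limb and trunk that lie 30989 kb upstream, took 4 calls in each E8.5 library, 1 call in 2 of the 8 E11.5 WT libraries and 0 in every Ezh2cKO library. A second region at Hoxd3 and Hoxd4 took 2 calls in each E8.5 library and 0 in all 16 E11.5 WT and Ezh2cKO libraries. The second Pax6 fragment was less clear-cut: its region from Hoxd10 to Hoxd4 took 3 calls in each E8.5 library, 0 to 2 in E11.5 WT, with a call in 5 of 8, and 0 in Ezh2cKO. The Pax6 fragment itself was called with the captured fragment of Hoxd10 and Hoxd9 in 0 of 2 E8.5 and 2 of 8 WT libraries. A region at Dcdc5 522 kb downstream took 4 and 5 calls at E8.5, at most 1 in WT and 0 in Ezh2cKO. Of the 28 Pax6 interactions present at either stage in enough libraries to be classed, 9 were called in both E8.5 libraries and at most 1 of 8 E11.5 WT libraries, and 0 showed the opposite. Over all fragments 18.8% of the interactions classed were early in this sense and 11.4% late. For the second Pax6 fragment 4 of 25 were early and 2 late, an early share below that of all fragments.

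Among the 7 genes, Pax6 and Pax1 were the only pair of different genes whose captured fragments were called as partners. They lie 41692 kb apart on chromosome 2. The Pax6 fragment and the Pax1 upstream fragment were called as partners in both E8.5, 2 of 8 E11.5 WT and 0 of 8 Ezh2cKO libraries. The second Pax6 fragment was called with the Pax1 start fragment in 2 of 2, 4 of 8 and 0 of 8, and with the Pax1 upstream fragment in 1 of 2, 1 of 8 and 0 of 8. The Pax6 fragment and the Pax1 start fragment were called in 0 of 2, 2 of 8 and 0 of 8. The region around Pax6 took 4 and 7 calls from the Pax1 upstream fragment at E8.5, and 3 calls at most in any later library. Within 1 gene, a pair of Pax8 fragments was called in 1 E8.5 library.

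Pax9, the palate and tooth regulator, kept most of its contacts without Ezh2 but lost all those on one side. The E8.5 libraries had 50 and 47 cis calls. The lowest, median and highest values were 60, 74.5 and 87 in E11.5 WT and 53, 60.5 and 66 in Ezh2cKO. The E8.5 libraries lie below every later WT library, and the WT and Ezh2cKO ranges overlap. The Ezh2cKO change was -0.31 (SE 0.08, adjusted p = 0.0119), and it did not pass with calls scored at least 7 (-0.22, adjusted p = 0.0902). The stage change was 0.46 (SE 0.12, adjusted p = 0.00719) and was lost without the second E8.5 library (0.38, adjusted p = 0.13). Of all fragments, 28.9% passed for stage and 18.6% passed with more calls at E11.5.

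Upstream of Pax9 the calls pointed to Nkx2-1, a homeobox gene of thyroid, lung and forebrain. The Nkx2-1 region (chr12:56513874-56539213), 167 kb upstream, took 9 and 8 calls at E8.5, 6 to 10 in the E11.5 WT libraries and 0 in each of the 8 Ezh2cKO libraries. Over the whole upstream side, WT libraries had 11.6 ± 1.92 calls and Ezh2cKO libraries had 0 in 8 of 8 (n = 8 each). On the downstream side the mean was 61.2 ± 11.4 in WT and 59.8 ± 4.65 in Ezh2cKO (SD, n = 8 each), so that the share of Pax9 calls pointing downstream went from 84.0% to 100%.

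Downstream of Pax9 the regions behaved in different ways. The region at Foxa1 and Ttc6 (chr12:57528633-57554843), 848 kb away, took 8 and 9 calls at E8.5, 9 in each E11.5 WT library and 1 to 4 in Ezh2cKO. Foxa1 encodes a forkhead factor of the endoderm. The captured fragment named for annotated ends of Foxa1 and Ttc6, 850.3 kb from Pax9, was still called in 7 of 8 Ezh2cKO libraries against 8 of 8 WT libraries. The loss was of the fragments around it. Among these, the next fragment, 854.3 kb from Pax9 and also inside both genes, was called in 8 of 8 WT and 1 of 8 Ezh2cKO libraries. Between Pax9 and Foxa1 lies Slc25a21, which encodes a mitochondrial carrier. Its farther region (chr12:57100753-57203126), 458 kb from Pax9, took 13 calls in both E8.5 libraries, 22 to 33 in WT and 26 to 32 in Ezh2cKO. Its nearer region (chr12:56955906-57080394), 325 kb away, took 9 and 8 calls at E8.5, 7 to 22 in WT and 18 to 28 in Ezh2cKO. The farther region thus had more calls in every E11.5 library of either genotype than at E8.5, while the captured Slc25a21 promoter, 504.9 kb away, was called in 8 of 8 WT and 1 of 8 Ezh2cKO libraries. The Nkx2-1 and Foxa1 losses and the Slc25a21 gene body contacts can be seen side by side in the plot of partner positions.

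**Figure D2:**
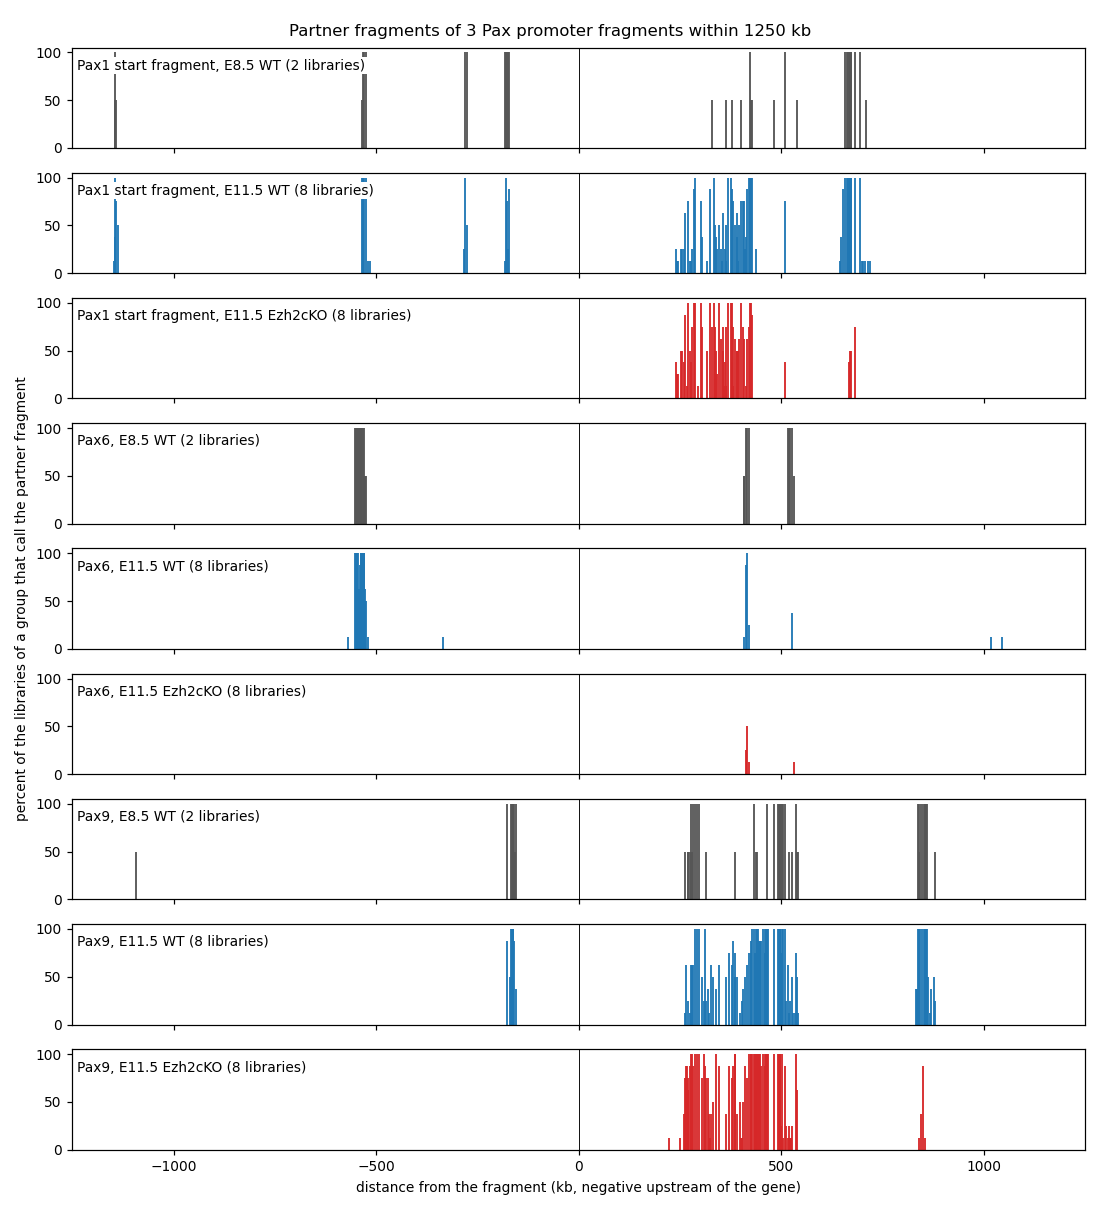
Partner fragments of the Pax1 start fragment, Pax6 and Pax9, by distance in kb (horizontal axis, negative upstream); the height of a line is the percent of a group's libraries (2, 8 or 8) that call the partner. In the Ezh2cKO panels the upstream lines of all 3 fragments are missing, and downstream lines short of the Foxa2 or Foxa1 region remain for Pax1 and Pax9. Some lines also remain within the Foxa2 region, highest at 681.9 kb (6 of 8), and the Foxa1 region, highest at 850.3 kb (7 of 8). Pax6 keeps a few downstream lines, highest at 416.0 kb (4 of 8).

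Within WT, calls to the nearer Slc25a21 region were 19, 22, 21 and 18 in the FNP and Mx libraries and 7, 14, 9 and 7 in the Md and PA2 libraries. These sets do not overlap. In Ezh2cKO the same libraries had 18, 24, 25 and 28 against 25, 24, 22 and 20, which overlap. In the Hoxa2PTE-36kb-del libraries of Md and PA2 the region took 7, 12, 7 and 8 calls, and in Hoxa2PTE-42kb-del it took 7 and 8, all within the range of WT Md and PA2. This pattern was noticed after the values were seen and has no test. In the test over tissues on all cis calls of WT, 0.271% of fragments passed and Pax9 did not (limma's F test, adjusted p = 0.476).

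Single Pax9 interactions followed the regions. Of 63 interactions classed, 16 were lost, which means called in 7 or 8 of the 8 WT libraries and in no more than 1 of the 8 Ezh2cKO libraries. In the opposite sense 2 were gained, both in Slc25a21, at 273.4 and 266.4 kb. Over all fragments 2.24% of the interactions classed were lost and 1.62% gained. Across stage, 13 of 52 were late and 1 was early, where 11.4% of the interactions classed over all fragments were late and 18.8% early. Twist1, a helix-loop-helix factor of crest mesenchyme that lies 22736 kb from Pax9, was its partner promoter in both E8.5 libraries and in none of the 16 E11.5 WT and Ezh2cKO libraries.

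Pax1, the sclerotome and pharyngeal pouch regulator, was captured by a pair of neighbouring fragments with many shared partners. The Pax1 start fragment (chr2:147362103-147367582) had 37 and 36 cis calls at E8.5. The lowest, median and highest values were 38, 52.5 and 79 in E11.5 WT and 25, 36.5 and 45 in Ezh2cKO. WT and Ezh2cKO overlap only between 38 and 45 calls. The Ezh2cKO change was -0.67 (SE 0.10, adjusted p = 0.000223). Among the calls with higher scores the change was larger, at -1.11 for a score of at least 7 and -2.43 for at least 10.

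The Pax1 upstream fragment (chr2:147358183-147361945), which overlaps the annotated gene start, showed a smaller change in all calls. It had 34 and 38 calls at E8.5, 33 to 46 in E11.5 WT (median 36.5) and 23 to 41 in Ezh2cKO (median 28.5). The groups overlap. The Ezh2cKO change was -0.39 (SE 0.11, adjusted p = 0.0272), -0.90 for a score of at least 7 and -2.31 for at least 10. Leaving out single libraries ended this call in 8 of 16 cases, with changes of -0.38 to -0.32 and adjusted p of 0.0511 to 0.0755. Those were the first FNP and Mx and the second Md and PA2 libraries of WT, and the second FNP, Mx and Md and the first PA2 libraries of Ezh2cKO.

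As with Pax9, the Pax1 calls that fell were those on the upstream side and those to a Foxa gene downstream. Upstream, the Pax1 start fragment had 17.1 ± 4.42 calls in WT (SD, n = 8) and 1 call in total over the 8 Ezh2cKO libraries. Downstream it had 38.8 ± 10.2 in WT and 35.8 ± 6.96 in Ezh2cKO (SD, n = 8 each). The region at Nkx2-2 (chr2:147182215-147192233), a homeobox gene of the ventral neural tube, lies 178 kb upstream and took 5 calls in each E8.5 library, 1 to 4 in WT and 0 in every Ezh2cKO library. A region without a named gene 530 kb upstream (chr2:146826319-146843047) took 4 calls in each WT library and 0 in Ezh2cKO. The Foxa2 region (chr2:148013792-148063342), at the gene of a forkhead factor of endoderm and floor plate 674 kb downstream, took 10 calls in each E8.5 library, 10 or 11 in WT and 1 to 3 in Ezh2cKO.

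Between Pax1 and Foxa2 a stretch that holds no listed gene (chr2:147624830-147794198), centred 345 kb downstream of Pax1, took most of the contacts that remained. It took 4 calls in each E8.5 library, 14 to 38 in E11.5 WT and 21 to 39 in Ezh2cKO. The WT values split by tissue: 23, 34, 38 and 29 in FNP and Mx against 18, 19, 18 and 14 in Md and PA2, with no overlap, while in Ezh2cKO they were 27, 26, 33 and 39 against 26, 21, 35 and 36, which overlap. From the Pax1 upstream fragment this stretch took 6 calls in each E8.5 library, 15 to 30 in WT and 21 to 33 in Ezh2cKO. The split was noticed after the values were seen and has no test. The same test over WT tissues on all cis calls did not pass for the Pax1 start fragment (adjusted p = 0.436).

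**Figure D3:**
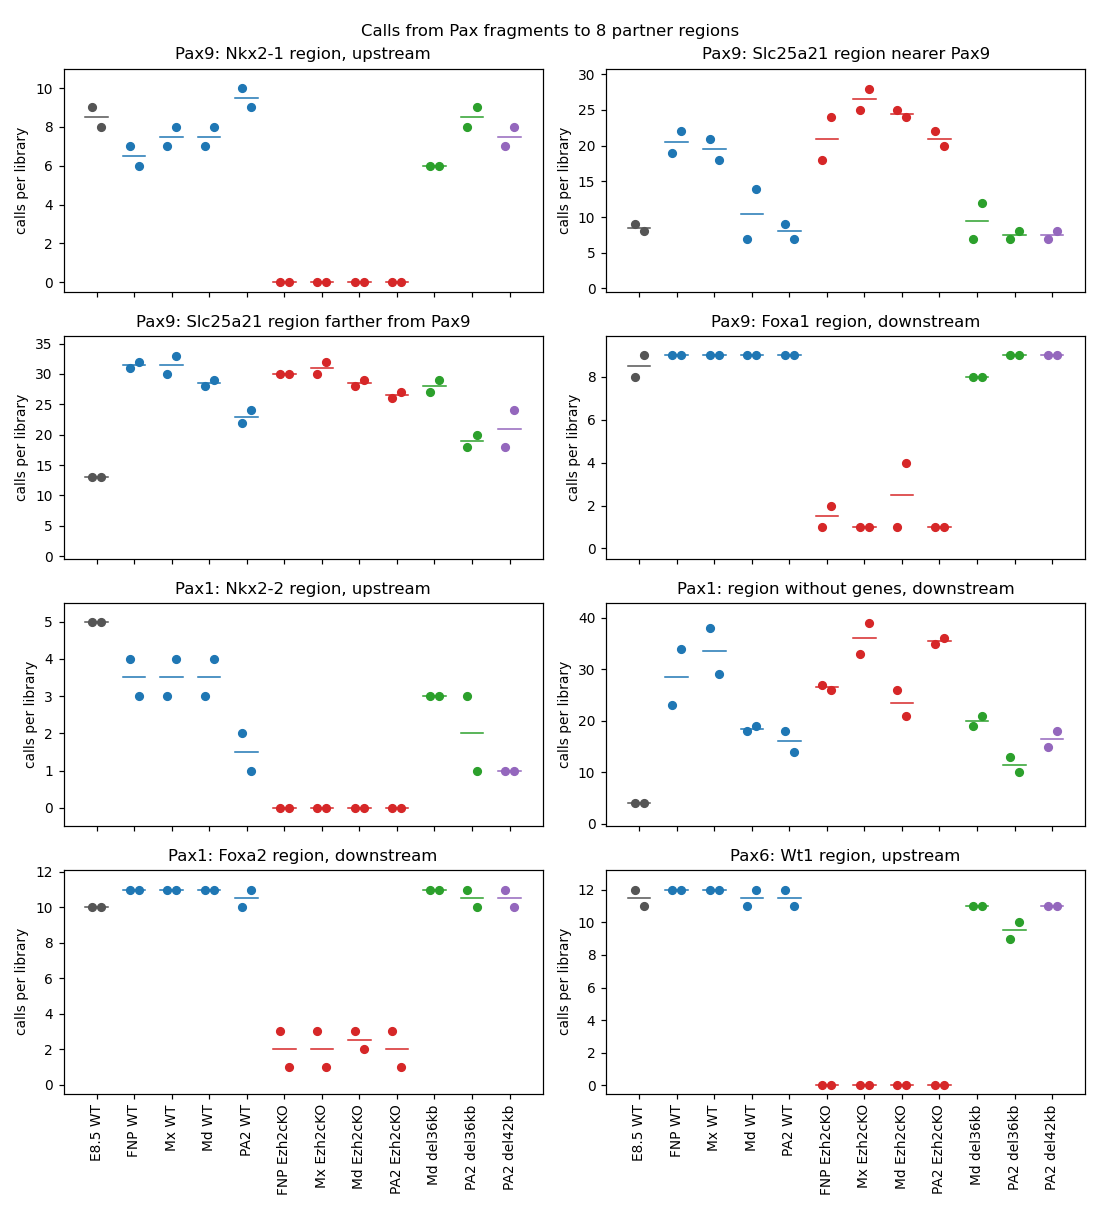
Calls per library (vertical axis) from Pax9, the Pax1 start fragment and Pax6 to 8 partner regions in the 12 groups (horizontal axis); each dot is 1 library and each bar the mean of 2. The regions at Nkx2-1, Nkx2-2 and Wt1 take 0 calls in all 8 Ezh2cKO libraries and those at Foxa1 and Foxa2 take 1 to 4, while the Slc25a21 regions and the region without genes keep 18 or more.

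The stage change of the Pax1 start fragment was 0.47 (SE 0.17, adjusted p = 0.0395). It was lost at a score of at least 7 (0.24, adjusted p = 0.456) and without either E8.5 library (0.52 and 0.41, adjusted p = 0.131 and 0.247). It was also lost without the second FNP, first Mx, second Md or first PA2 library of WT (adjusted p = 0.0669, 0.0695, 0.0591 and 0.0732). The upstream fragment changed by -0.06 with stage (adjusted p = 0.834). Its longest contacts fell: calls of 1 Mb or more were 10 and 13 at E8.5 and 1 to 4 in E11.5 WT, which do not overlap. The fragment would not reach the filter of this class, a mean of 2 calls, without its E8.5 libraries. Its test of stage therefore cannot decide this fall. That stage change was -2.28 (SE 0.73, adjusted p = 0.0243), in a class where 22.3% of fragments passed and 4.8% passed with fewer calls. Without either E8.5 library it did not pass (adjusted p = 0.132 and 0.199).

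Pax1 lost promoter partners without Ezh2 in the same way, a promoter partner being a partner fragment that was itself captured. The Pax1 start fragment had 8 in each E8.5 library, 4 to 9 in E11.5 WT and 1 or 2 in Ezh2cKO, which do not overlap. The change was -1.87 (SE 0.20, adjusted p = 6.93e-06). Over 7236 fragments tested for promoter partners, 5.47% passed and 4.19% passed with fewer. Nkx2-4, 280.3 kb upstream, was a partner in both E8.5, 8 of 8 WT and 0 of 8 Ezh2cKO libraries. Insm1, the gene of a zinc finger factor of neuroendocrine cells 1141.7 kb upstream, was a partner in 1 of 2, 6 of 8 and 0 of 8. The fragment at Foxa2, 681.9 kb downstream, was a partner in 2 of 2, 8 of 8 and 6 of 8.

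Promoter partners of Pax6 and Pax9 also fell in Ezh2cKO, and those of the Pax1 upstream fragment did not pass. Pax6 had 8 partners in each E8.5 library, 2 to 9 in WT and 0 or 1 in Ezh2cKO, a change of -2.91 (SE 0.32, adjusted p = 7.05e-06). Pax6 would not reach the filter of a mean of 2 partners without its E11.5 WT libraries, so its change is given as a description. Pax9 had 6 and 5, then 2 to 6 in WT and 0 to 3 in Ezh2cKO, a change of -1.16 (SE 0.30, adjusted p = 0.0276), with overlapping groups. Leaving out the second FNP, first Mx, second Md or second PA2 library of WT, or the second FNP, either Mx or the second Md library of Ezh2cKO, ended the Pax9 call (changes of -1.17 to -1.05, adjusted p of 0.0503 to 0.0654). The Pax1 upstream fragment did not pass (-0.98, adjusted p = 0.0646), except without the second FNP or first Mx library of Ezh2cKO (-1.26 and -1.17, adjusted p = 0.00679 and 0.0287). With stage no member passed for promoter partners, against 5.46% of all fragments tested. Of the Pax6 partners, the promoters of developmental transcription factors and signals numbered 3.25 ± 1.75 in WT (SD, n = 8) and 0 in every Ezh2cKO library. Other promoter partners of Pax6 were few and went from a mean of 0.875 to 0.125. For the Pax1 start fragment the means went from 3.5 to 0.75 for developmental and from 3.125 to 0.75 for other promoters. For Pax9 they went from 2 to 0.875 and from 1.75 to 0.75.

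The longest contacts changed most for the Pax1 fragments and Pax9. Calls of 1 Mb or more fell by 2.90 on the log2 scale for the Pax1 start fragment (SE 0.35, adjusted p = 3.53e-07), from 4 to 12 per library in WT to 0 or 1. Those of Pax9 fell by 2.38 (SE 0.41, adjusted p = 0.000134), from 3 to 8 down to 0 to 3, so the ranges meet at 3. Pax6 fell by 3.91 (SE 0.34, adjusted p = 6.18e-10), from 6 to 19 down to 0 or 1. Of 5308 fragments tested in this class 8.91% passed and 6.95% passed with fewer calls. The Pax1 upstream fragment fell by 1.67 (SE 0.46, adjusted p = 0.0197), a call lost without the first FNP or first Md library of WT or the second FNP, second Mx or first PA2 library of Ezh2cKO (adjusted p of 0.0513 to 0.071).

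Between 100 kb and 1 Mb the members differed more. Pax6 fell by 3.72 on the log2 scale in this class (SE 0.30, adjusted p = 3.77e-08), and the Pax1 start fragment by 0.46 (SE 0.10, adjusted p = 0.00903). Here 8.59% of 11548 fragments passed, 2.99% with fewer and 5.6% with more calls. Pax9 fell by 0.22 (SE 0.06, adjusted p = 0.0329), and the Pax1 upstream fragment by 0.32 (SE 0.10, adjusted p = 0.0497). Single libraries ended the Pax9 call in 10 of 16 cases (-0.23 to -0.19, adjusted p of 0.0535 to 0.0803) and that of the Pax1 upstream fragment in 12 of 16 (-0.34 to -0.26, adjusted p of 0.0603 to 0.126). For Pax9 these were the second FNP, first Mx, second Md and both PA2 libraries of WT, and the first FNP, first Mx, second Md and both PA2 libraries of Ezh2cKO. The call of the Pax1 upstream fragment held without the second Mx library of WT or the first FNP, Mx or Md library of Ezh2cKO, and was lost without any of the other 12. With stage, calls in this class rose for Pax9 (0.55, SE 0.10, adjusted p = 0.000368) and for the Pax1 start fragment (0.66, SE 0.17, adjusted p = 0.00546), in a class where 24.3% passed and 16.6% rose. The Pax1 rise was lost without the second E8.5 library (0.52, adjusted p = 0.139) and at a score of at least 7 (0.30, adjusted p = 0.387).

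**Figure D4:**
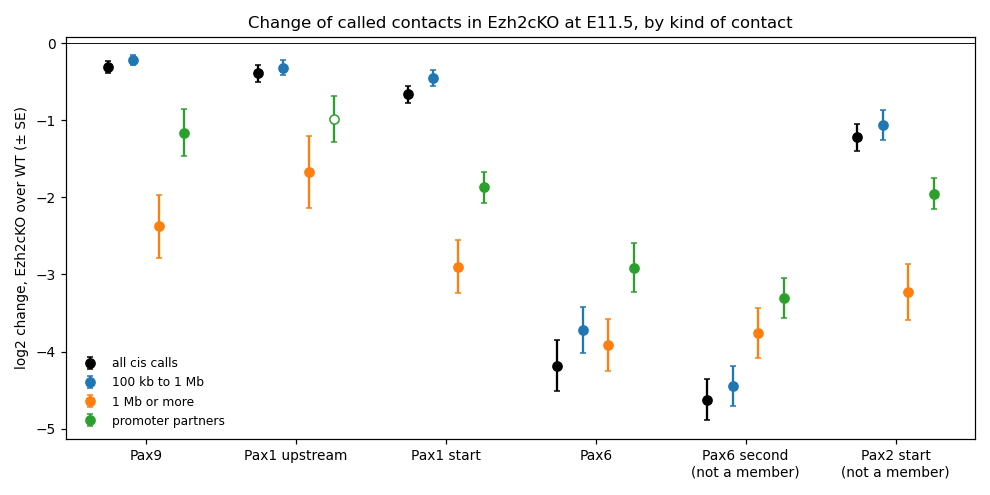
Log2 change of called contacts in Ezh2cKO over WT at E11.5 (vertical axis, bars are SE), in 4 kinds of contact. Shown are the 4 tested members and 2 fragments that are not members, the second Pax6 fragment and the Pax2 start fragment. Filled dots have an adjusted p under 0.05 and the open dot does not. All cis calls changed by -0.31 for Pax9 and -4.18 for Pax6, while calls of 1 Mb or more changed by -2.38 and -3.91.

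Pax5, the B cell and midbrain regulator, had few contacts and different ones at each stage. It had 12 and 9 cis calls at E8.5, 1 to 4 in E11.5 WT (median 3.0) and 0 in 6 of the 8 Ezh2cKO libraries, with 1 and 2 in the others. E8.5 stands above all E11.5 WT libraries, and WT and Ezh2cKO overlap at 1 and 2. Both early regions lie upstream at Zcchc7, the gene of an RNA-processing factor. The one at 146 kb took 5 and 4 calls at E8.5 and 0 in all 16 E11.5 WT and Ezh2cKO libraries, and that at 199 kb took 4 and 3 at E8.5, 0 in WT and 1 call in 1 Ezh2cKO library. Foxe1, a forkhead gene of the thyroid and palate 1634.2 kb away, was the Pax5 partner promoter in 1 of 2 E8.5, 8 of 8 WT and 0 of 8 Ezh2cKO libraries. With the filter lowered to a mean of 2 calls, Pax5 changed by -2.22 in Ezh2cKO (SE 0.43, adjusted p = 0.00194) and by -1.89 with stage (SE 0.67, adjusted p = 0.0496). Pax5 would not reach this filter without its E8.5 libraries, so its test of stage cannot decide whether its calls fell.

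Pax8, the thyroid and kidney regulator, had 4 and 6 cis calls at E8.5, 1 to 3 in E11.5 WT and 1 to 4 in Ezh2cKO. The last 2 groups overlap throughout. With the lowered filter its changes were -0.14 for Ezh2cKO (adjusted p = 0.866) and -1.23 with stage (adjusted p = 0.141). Its recurrent partner promoter was Il1f10, an interleukin family gene 182.9 kb away, called in 2 of 2 E8.5, 8 of 8 WT and 6 of 8 Ezh2cKO libraries. Pax7, the crest and muscle progenitor gene, had 1 and 0 cis calls at E8.5, 0 to 4 in E11.5 WT and 0 to 3 in Ezh2cKO, where 6 of 8 libraries had 1. These groups overlap, and a difference was not detectable at this number of calls. No Pax7 partner promoter recurred in enough libraries to be named.

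The Pax2 start fragment, which is not a member, is given because no member fragment covers this gene of the kidney, ear and optic stalk. It had 11 and 8 cis calls at E8.5, 19 to 29 in E11.5 WT (median 25.5) and 7 to 16 in Ezh2cKO (median 11.0). The WT libraries lie above both other groups without overlap. The changes were -1.22 for Ezh2cKO (SE 0.17, adjusted p = 5.57e-05) and 1.23 with stage (SE 0.27, adjusted p = 0.00183). The stage change was lost without the second E8.5 library (0.97, adjusted p = 0.0737).

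Homeobox genes led the partners of the Pax2 start fragment in WT. The region at Nkx2-3, 1143 kb upstream, took 6 calls in each of the 8 WT libraries and a mean of 0.5 in Ezh2cKO. Tlx1 at 398 kb and Lbx1 at 490 kb downstream took means of 3.75 and 5.12 in WT and of 0.25 and 0 in Ezh2cKO. In contrast the region at Hif1an, the gene of an oxygen-sensing hydroxylase 176 kb upstream, took a mean of 1.62 in WT and 4.25 in Ezh2cKO. The captured Hif1an promoter was a partner in 2 of 8 WT and 8 of 8 Ezh2cKO libraries. A fragment 2222 bp from the end of Pax2 (chr19:44827358-44836047) had 1 to 6 cis calls in WT and 5 to 8 in Ezh2cKO, and these ranges overlap at 5 and 6. With the lowered filter its cis calls did not pass (1.02, SE 0.36, adjusted p = 0.0894). Its calls between 100 kb and 1 Mb rose by 1.61 on the log2 scale (SE 0.32, adjusted p = 0.00375).

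The test of whether the Ezh2cKO effect differs between tissues passed for no tested Pax fragment. It passed for 0.00967% of fragments over the series, with adjusted p = 0.876 for the Pax1 start fragment and 0.998 for Pax6. Within tissues the Pax1 start fragment passed in Mx (-0.86, SE 0.21, adjusted p = 0.0434) and Md (-0.85, SE 0.21, adjusted p = 0.037), and not in FNP (-0.79) or PA2 (-0.16, adjusted p = 0.826). The share of all fragments past the threshold was 0.831%, 1.26%, 1.84% and 1.63% for FNP, Mx, Md and PA2. The Mx call was lost without any 1 of the 4 Mx libraries (-1.03 to -0.69, adjusted p of 0.0531 to 0.377). The Md call was lost without either WT library or the second Ezh2cKO library of Md (-0.89, -0.80 and -0.58, adjusted p = 0.166, 0.185 and 0.321). At a score of at least 10 the Pax1 start fragment also passed in FNP (-3.36, adjusted p = 2.44e-07) and PA2 (-1.70, adjusted p = 0.00062). Pax9 and the Pax1 upstream fragment passed in no single tissue with all calls.

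No tested Pax fragment passed the threshold in either deletion, for all cis calls or for calls of 1 Mb or more. Pax6 had 23, 19, 19 and 20 cis calls in the Hoxa2PTE-36kb-del libraries and 18 in both Hoxa2PTE-42kb-del libraries, below the 22 to 36 of WT except for the first. Its changes were -0.19 (adjusted p = 0.833) and -0.52 (adjusted p = 0.735) against WT of the same tissues. Pax9 had 56, 62, 51 and 57 calls, and 49 and 63, with changes of 0.01 (adjusted p = 0.973) and -0.03 (adjusted p = 0.948). The Pax1 start fragment changed by -0.01 in Hoxa2PTE-36kb-del (adjusted p = 0.962) and the upstream fragment by 0.16 (adjusted p = 0.541). Over all fragments 11.1% passed for Hoxa2PTE-36kb-del, 1.84% for Hoxa2PTE-42kb-del and 0.425% for the difference between them. Calls of 1 Mb or more were tested in the deletions after their values were seen. Pax6 had 3 and 4 in Md of Hoxa2PTE-36kb-del against 6 and 12 in Md WT. In PA2 it had 5 and 7 in Hoxa2PTE-36kb-del and 6 and 4 in Hoxa2PTE-42kb-del against 19 and 11 in WT. The deletion libraries lie below the WT libraries of their tissue without overlap, but neither change passed: -1.01 (SE 0.48, adjusted p = 0.249) in Hoxa2PTE-36kb-del and -1.33 (SE 0.68, adjusted p = 0.339) in Hoxa2PTE-42kb-del. The second Pax6 fragment had 3 and 3 against 8 and 8 in Md, and 5 and 3, then 5 and 5, against 11 and 17 in PA2, also without overlap. It changed by -1.29 (SE 0.46, adjusted p = 0.0932) in Hoxa2PTE-36kb-del and by -1.23 (SE 0.65, adjusted p = 0.358) in Hoxa2PTE-42kb-del. The Pax1 start fragment had 3 and 2 against 11 and 12 in Md, without overlap. In PA2 it had 3 and 9, then 3 and 6, against 10 and 4, which overlap. Pax9 overlapped in both tissues, with 4 and 1 against 4 and 8 in Md, and 5 and 3, then 4 and 9, against 4 and 8 in PA2. The Pax1 upstream fragment had 4 and 2 in both Md groups, and 2 and 1, then 1 and 3, against 3 and 4 in PA2. Of the 5308 fragments in this class 6.16% passed for Hoxa2PTE-36kb-del, 290 with fewer and 37 with more calls. For Hoxa2PTE-42kb-del 2.51% passed, 126 with fewer and 7 with more. The deletion libraries held 142284 to 158363 calls in total, against 169967 to 173381 in WT Md and PA2. How many of all fragments separate without overlap was not counted. The Wt1 region kept 9 to 11 calls from Pax6 and the Nkx2-1 region 6 to 9 from Pax9 in all 6 deletion libraries.

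Some neighbours of Pax1, Pax6 and Pax9 had fewer calls in Ezh2cKO, where 5.39% of all fragments did. Of 6 tested captured fragments within 1 Mb of Pax1, 5 had fewer cis calls in Ezh2cKO past the threshold. Nkx2-4 went from 25.2 ± 2.60 to 1.12 ± 0.64 calls (SD, n = 8 each), a change of -4.15 (SE 0.20, adjusted p = 3.2e-12), and an unnamed fragment at chr2:146838305 changed by -5.34. Foxa2 changed by -2.57. Of the 8 tested within 1 Mb of Pax9, 4 had fewer and 1 more, led by Foxa1 and Ttc6, which went from 36.6 ± 3.46 to 8.75 ± 2.25 (SD, n = 8 each; -2.08, SE 0.11, adjusted p = 3.24e-11). Nkx2-9 changed by -1.18 and Slc25a21 by -1.12. Near Pax6 1 of 2 tested had fewer, and this was Wt1, which went from 21.5 ± 2.33 to 0.75 ± 1.04 (-4.54, SE 0.33, adjusted p = 3.42e-09). Part of these counts are the same interactions with the Pax fragments, counted from the other end.

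Around the other Pax genes the counts were as follows. Of 27 tested fragments within 1 Mb of Pax8, 3 had more calls in Ezh2cKO and 0 had fewer. None of the 6 tested near Pax5 or the 6 near Pax7 passed for Ezh2cKO. Of all fragments 10.8% passed for Ezh2cKO in either direction and 5.39% had fewer. With stage, 9 of the 27 near Pax8 had fewer calls at E11.5 than at E8.5 and 0 had more, while 10.3% of all fragments had fewer. More calls at E11.5 were found for 4 of 6 near Pax5, 2 of 6 near Pax7, 2 of 8 near Pax9, 1 of 6 near Pax1 and 0 of 2 near Pax6, beside 18.6% of all fragments, and 0 of these had fewer. Near the Pax2 start fragment, 5 of 22 had more and 5 fewer, with Tlx1 at -4.11 (adjusted p = 1.06e-07).

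A list of 45 genes known to act with, above or below Pax factors had 35 tested fragments of 32 genes. In Ezh2cKO 11 of them had fewer and 4 more cis calls, with a list median of -0.09 against 0.01 over all fragments. Of all fragments 10.8% passed in either direction and 5.39% had fewer. Wt1 changed most (-4.54), followed by Neurog2, a neurogenic factor downstream of Pax6 (-2.14), and Six6, an eye homeobox gene (-2.12). Pax3, the close relative of Pax7, went from a mean of 66.9 calls in WT to 27.1 (-1.49). Among those with more calls were Bmp4, a signal acting with Pax9 in tooth development (1.00), and Sall1 (0.63). Foxe1, Gata3, Nkx2-1 and the fragment shared by Dmpk, Six5 and Bhmg1 also had fewer. With stage 11 of the 35 had more and 1 fewer calls, with a median of 0.27 against 0.03. Of all fragments 18.6% had more and 10.3% fewer with stage. Six2 (1.99), Tle1 (1.84), Tle3 (1.55) and Eya1 (1.08), cofactors or partners of Pax proteins in other organs, had more calls at E11.5. The fragment shared by Mybpc3 and Spi1, the gene of a myeloid factor, had fewer (-1.72), while the fragment of Spi1 alone changed by -0.55 (adjusted p = 0.349).

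Other fragments on other chromosomes followed the Pax fragments across the 24 libraries. The highest correlations of the log2 values were with Hoxb13 (r = 0.97), Tal1 (0.96) and Vgll2 (0.95) for Pax6, and with Fancc (0.80), Stx18 (0.76) and Foxl2 (0.75) for Pax9. For the Pax1 start fragment they were Slc25a21 (0.82), Prdm13 (0.74) and Zic1 (0.72), and for the upstream fragment Tlx1 (0.83), Chchd6 (0.80) and the fragment of Hmx2 and Bub3 (0.79). Slc25a21 is the neighbour of Pax9 and not of Pax1. Among the members, the Pax1 start fragment and Pax9 had r = 0.65, both Pax1 fragments 0.74, and Pax6 and Pax9 0.42. These values are taken over libraries that share the genotype split, so they describe likeness over these groups only.

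Markers of other cells were compared in the same counts, with the limit that contacts do not show expression. In Ezh2cKO 1 of 4 tested fragments had fewer calls for each of the neural, endothelial and blood lists. Of all fragments 10.8% passed in either direction and 5.39% had fewer. None of 4 muscle, 2 epithelial or 10 housekeeping fragments passed in either direction. In the wider list of developmental transcription factors and signals, 94 of 233 fragments had fewer and 14 more calls. Their part in the Pax results was not tested.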

How the data were processed

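The data are lists of called interactions between HindIII fragments, 1 list per library, each with a score as deposited by the authors (from CHiCAGO, as the files are named), on GRCm38 (mm10) per the submitters' processing notes. No label or header names an aligner. The files hold interactions with a score of 5 or more and no read counts, so read depth is unknown and a missing call is not a missing contact. The members and gene lists were chosen with earlier results of these data known.

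Calls per fragment were counted at either end in Python 3.11.15 and fitted (limma 3.58.1, R 4.3.3; all 24 libraries, a mean for each of 12 groups, eBayes with trend) on log2 values, with filters of a mean of 5 cis calls, or 2 for a class or promoter partners. The fit was tested on simulated data. Interactions were classed as lost where 7 or 8 WT libraries and no more than 1 Ezh2cKO library called them, and gained in reverse. Regions join partner fragments called in at least 6 of 8 libraries of a group, or both E8.5 libraries, with gaps of at most 20 kb. Genes named are the 7 members, their recurrent promoter partners, up to 3 neighbours within 1 Mb by adjusted p, up to 10 list genes by adjusted p, the 3 fragments most alike, and the genes of named regions. Nothing in the sources used here says that replicates came from separate embryos, so p-values measure the spread between these libraries. Replicate numbers did not pair the samples: of 66 pairs of groups, 1 had a correlation of same-numbered deviations over 0.1 (range -0.09 to 0.16).

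Alternatives were higher scores, other scalings and filters, another added count, a replicate block, fewer groups, leaving out each library, and, chosen after seeing the data, counting only the first-listed end and testing the deletions on calls of 1 Mb or more. A few results are not reported here.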

Additional observations from a re-analysis of the deposited data

Results flagged for a closer look

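Single libraries stood apart from the rest of their group in 9 of 63 sets of 4 or 8 libraries screened. The nominal rate of this screen, 1 in 20, does not hold for small counts with many ties. The 9 therefore cannot be set against it. Most concern very small counts. For Pax7, the second FNP Ezh2cKO library had 3 cis calls against at most 1 in the other 7, and the first Md Ezh2cKO library had 1 call of 1 Mb or more and 1 promoter partner against 0 in the others. For Pax8, the first PA2 Hoxa2PTE-36kb-del library had 2 cis calls against 1 in the other 3. The first PA2 Ezh2cKO library had 1 Pax5 promoter partner against 0 in the others and 3 Pax9 calls of 1 Mb or more against at most 1. For the Pax1 start fragment, the second PA2 Hoxa2PTE-36kb-del library had 9 calls of 1 Mb or more against 2 or 3. For Pax6, the first PA2 WT library had 9 promoter partners against 2 to 5, and the second FNP Ezh2cKO library had 1 against 0.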

How the results depend on the processing

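No Pax result reversed under any alternative. Higher score limits left fewer calls and fewer fragments to test. At a score of at least 7 the fragments past the threshold numbered 567 for Ezh2cKO, 1543 for stage, 524 for Hoxa2PTE-36kb-del, 108 for Hoxa2PTE-42kb-del, 117 for Ezh2cKO in Md, 2 for Ezh2cKO by tissue and 9 for WT tissues. At that score they were 250 (Ezh2cKO) and 208 (stage) for promoter partners, 100 and 259 under 100 kb, 552 and 1542 between 100 kb and 1 Mb, 301 and 730 at 1 Mb or more, and 54 for trans calls in Ezh2cKO, with 7287 early and 5857 late interactions. At a score of at least 10 the counts were 237 for Ezh2cKO, 611 for stage, 212 and 43 for the deletions, 19 for their difference, 6 for WT tissues, and 50, 56, 77 and 79 for Ezh2cKO in FNP, Mx, Md and PA2. Fitting only the groups compared gave 694 and 81 for the deletions, 2 for their difference, 38, 59, 82 and 26 within the tissues, 0 for Ezh2cKO by tissue and 15 for WT tissues, with fewer samples to estimate the spread. Without division by the library total the difference between deletions had 27. Calls of 1 Mb or more, tested after the data were seen on fewer fragments, gave 327 for Hoxa2PTE-36kb-del. Requiring all 8 of one genotype and none of the other left 697 lost and 208 gained interactions.

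Among members, Pax9 in Ezh2cKO changed by -0.22 at a score of at least 7, and by -0.079 (score) or -0.19 (no division) between 100 kb and 1 Mb, none past the threshold. The Pax1 start fragment with stage changed by 0.24 and 0.087 at the higher scores, 0.41 with median-of-ratios factors and 0.47 with a mean filter of 2, and by 0.30 between 100 kb and 1 Mb at a score of at least 7, none past the threshold. Without division the Pax1 upstream fragment between 100 kb and 1 Mb changed by -0.28 in Ezh2cKO, not past the threshold, and by 0.50 with stage, past it. Pax6 with stage passed only where the groups compared were fitted alone (-0.65). The cause was not tested.

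Leaving out 1 library gave ranges of 1668 to 2860 fragments for stage, 594 to 1300 and 29 to 122 for the deletions, 36 to 185 for their difference, 55 to 88, 60 to 103, 92 to 158 and 81 to 98 for Ezh2cKO in FNP, Mx, Md and PA2, 1 to 3 for Ezh2cKO by tissue and 7 to 25 for WT tissues. For stage they were 139 to 317 for promoter partners, 277 to 578 under 100 kb, 1536 to 2699 between 100 kb and 1 Mb, 665 to 1139 at 1 Mb or more and 4 to 18 for trans calls, and for Ezh2cKO under 100 kb 152 to 214. The Pax9 ranges were 0.38 to 0.54 for stage, -1.51 to -0.81 for promoter partners and -0.25 to -0.19 between 100 kb and 1 Mb. Those of the Pax1 start fragment with stage were 0.41 to 0.52, and 0.52 to 0.80 between 100 kb and 1 Mb. The Pax1 upstream fragment ranged over -0.46 to -0.32 for Ezh2cKO, -1.26 to -0.70 for promoter partners, -0.38 to -0.26 between 100 kb and 1 Mb, -1.97 to -1.37 at 1 Mb or more, and -2.42 to -2.13 with stage in that class. With the replicate number as a block, 1083 fragments passed for Ezh2cKO and 2968 for stage, Pax6 changed by -4.18, and no Pax call changed.

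The files hold no read counts, so depth limits on a missing call could not be computed, and E8.5 rests on 2 libraries.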
